A study of Oryctolagus cuniculus with 9 samples.

Results

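The genes described here are used as readouts, or encode ligands, of transforming growth factor β (TGF-β) and bone morphogenetic protein (BMP) signalling. Their RNA was measured in cultured vascular smooth muscle cells given β-estradiol. They were chosen by symbol, from the inhibitor of DNA binding genes ID1 to ID4, the inhibitory SMAD genes SMAD6 and SMAD7, the TGF-β-induced matrix gene TGFBI, and the ligand genes BMP4, TGFB1 and TGFB2. Of these 10 symbols, 7 were in the tables of 19291 genes: ID1, ID2, ID3, SMAD7, TGFBI, BMP4 and TGFB2. The other 3, ID4, SMAD6 and TGFB1, were not found by symbol and are not analysed here. Since 5973 rows carry only an Ensembl identifier, these 3 genes may still be present without a symbol. All 7 genes were among the 12324 with enough counts to be tested.

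Messenger RNA was sequenced in 9 libraries from HA-VSMC, a cultured line that its labels assign to the rabbit, Oryctolagus cuniculus. No other label gives its species or tissue of origin. There were 3 control libraries, 3 libraries of cells given β-estradiol at 50 nM and 3 at 250 nM, harvested after 48 h. β-Estradiol is the main ovarian estrogen, and it was dissolved in DMSO. The culture medium of every group contained fetal bovine serum. The labels do not say whether the controls received the solvent, and their treatment protocol names 250 nM as the concentration. Control samples carry the treatment tag estrogen like all others, and WT in place of a concentration, so the controls are known as such from their titles. Nothing in the labels says that replicates were separate cultures, so p-values measure the spread between these libraries, which may be technical. The stated purpose concerned estrogen in adenomyosis, a uterine disorder.

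The libraries totalled 54718407 to 72274464 counts. With some 4 counts to a fragment this corresponds to 13679602 to 18068616 fragments. Of 12 smooth muscle markers 9 were in the tables. Actin gene ACTA2 averaged 1322 FPKM (fragments per kilobase of transcript, scaled to library size) in controls and the tropomyosin gene TPM2 993.8 FPKM, whereas DES was listed at 0 and MYOCD did not exceed 0.66 FPKM. The 8 endothelial markers summed to at most 1.151 FPKM in any library, and the 5 epithelial markers in the tables to at most 0.35 FPKM. Among 6 leukocyte markers LAPTM5 alone was above 1 FPKM, averaging 67.0, 64.3 and 66.1 FPKM in control, 50 nM and 250 nM libraries. The fibroblast markers, 8 of 9 in the tables, summed to 4658 to 4923 FPKM in control, 5183 to 5398 FPKM in 50 nM and 5257 to 5458 FPKM in 250 nM libraries. The collagen genes made up most of this sum and of its difference, COL1A1 averaging 1933, 2113 and 2183 FPKM in control, 50 nM and 250 nM libraries and COL1A2 2772, 3038 and 3073 FPKM. Other fibroblast markers did not share this order, DCN averaging 76.2, 77.3 and 77.0 FPKM and LUM 5.65, 5.40 and 5.36 FPKM. FAP averaged 18.6, 20.4 and 19.4 FPKM and THY1 2.598, 2.726 and 2.675 FPKM, both above control at both concentrations. DPT averaged 6.58, 7.44 and 6.26 FPKM, and PDGFRA 0.36, 0.34 and 0.37 FPKM. Whether the collagen difference has a part in the results on the 7 genes was not tested. In bulk libraries, fewer cells of a type and less RNA per cell cannot be told apart.

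TGF-β and BMP ligands bind paired type I and type II receptor kinases, which phosphorylate receptor SMADs. These join SMAD4 and enter the nucleus, SMAD2 and SMAD3 mainly downstream of TGF-β and activin, and SMAD1, SMAD5 and SMAD9 downstream of BMPs. The ID genes are direct BMP targets. Their proteins carry a helix-loop-helix without a DNA-binding region and hold E proteins such as TCF3 and TCF4 off DNA. SMAD7 is induced by the pathway and shuts it down by occupying type I receptors and bringing ubiquitin ligases to them. In vascular smooth muscle, TGF-β is known to drive contractile and matrix genes, and BMP signalling to restrain growth.

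Per transcript length, the 7 genes covered a wide range, shown in the plot of FPKM on a log axis. TGFBI, which encodes a secreted matrix protein that binds collagen and integrins, averaged 2140 ± 46.7 FPKM in control, 2348 ± 41.2 in 50 nM and 2224 ± 14.8 in 250 nM libraries (SD, n = 3 each). This placed it 22nd, 18th and 19th among all tested genes. ID3 followed with 357.6 ± 32.2, 412.4 ± 29.3 and 338.3 ± 13.9 FPKM in control, 50 nM and 250 nM libraries. ID1 came after ID3 in each group, with 54.7 ± 10.9, 84.9 ± 15.0 and 61.8 ± 0.54 FPKM. ID2 and BMP4 came next, and in control libraries they overlapped, at 30.3 ± 1.45 FPKM for ID2 and 29.9 ± 1.10 FPKM for BMP4. At 50 nM they were apart, with 44.6 ± 6.22 FPKM for ID2 and 24.5 to 25.2 FPKM for BMP4, and at 250 nM they were apart again, at 31.7 ± 2.32 and 26.7 ± 1.06 FPKM. TGFB2 had 13.2 ± 1.59, 14.7 ± 0.54 and 13.6 ± 0.14 FPKM. SMAD7 was lowest, with 5.48 ± 0.14, 6.58 ± 0.48 and 4.21 ± 0.46 FPKM. All neighbours in this order other than ID2 and BMP4 in controls were free of overlap within each group. At these levels ID2 rested on about 172 to 267 fragments per library, SMAD7 on 209 to 369 and TGFBI on 74595 to 93298.

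**Figure D1:**
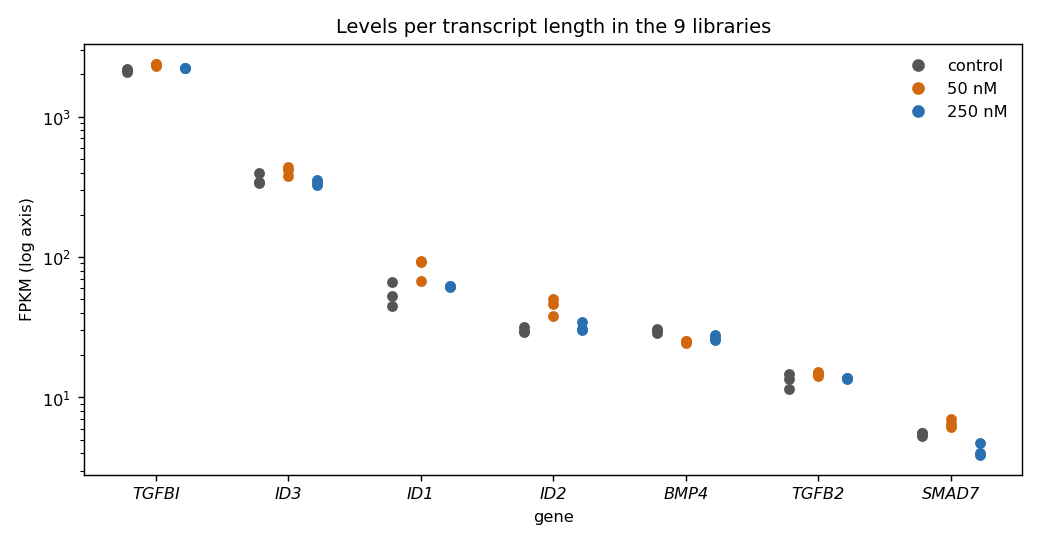
Deposited FPKM (log axis) of the 7 genes, ordered by level, with 1 point per library for control, 50 nM and 250 nM. TGFBI lies at 2087 FPKM or more and SMAD7 between 3.88 and 7.08 FPKM, and ID2 and BMP4 overlap in the controls.

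The comparison of 50 nM estradiol with control asked which genes differ at the lower concentration. ID1, ID2, ID3 and TGFBI rose, by 1.61-fold, 1.52-fold, 1.20-fold and 1.14-fold. SMAD7, TGFB2 and BMP4 did not pass (edgeR quasi-likelihood test, adjusted p under 0.05). Of all 12324 genes tested, 3.25% passed and 1.55% passed upward, against 4 of the 7 genes here, all of them upward. The median log2 fold change was 0.26 over the 7 genes and -0.002 over all genes. The 50 nM and control libraries did not overlap for 6 of the 7, TGFB2 being the exception, whereas 19.0% of all genes were separated in this way. The genes were chosen with earlier results of these data known, so these counts describe them and are not independent evidence.

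ID1, a BMP target that restrains differentiation in many cell types, had 101.4, 74.8 and 101.9 CPM (counts scaled to a common library size, with TMM factors) in the 50 nM libraries. In control libraries it had 69.5, 47.6 and 55.8 CPM. The lowest 50 nM library, replicate 2, lay just above the highest control, replicate 1. The log2 fold change was 0.69 ± 0.12 (SE), with a 95% interval of 0.42 to 0.95 and an edgeR adjusted p of 0.00536. ID1 passed without any 1 of the 6 libraries (log2 fold change 0.57 to 0.84, edgeR adjusted p up to 0.0403). In each limma fit on the deposited FPKM values it missed the threshold (0.63 ± 0.15 and adjusted p = 0.0554 on log2(FPKM + 1), adjusted p up to 0.0987). Of all 18 alternatives, ID1 passed in 15.

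ID2, whose product binds E proteins and, in other systems, the retinoblastoma protein, had 19.3, 14.8 and 17.7 CPM in 50 nM libraries. Control libraries had 10.9, 12.1 and 11.1 CPM, all lower. ID2 rose by a log2 fold change of 0.60 ± 0.10 (95% interval 0.38 to 0.82, edgeR adjusted p = 0.00394). ID2 passed in all 18 alternative settings, where the adjusted p reached at most 0.0406. No other of the 7 genes did so at 50 nM.

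ID3, the most abundant of the ID genes here, had 192.8, 170.2 and 183.7 CPM in 50 nM libraries, against 167.2, 145.8 and 144.2 CPM in control libraries. The lowest 50 nM library again exceeded the highest control by little, and these were again replicate 2 and replicate 1. The log2 fold change of 0.26 ± 0.07 passed narrowly (edgeR adjusted p = 0.0499). The call was lost without control replicate 2 (0.136) or 3 (0.225) and without 50 nM replicate 1 (0.202) or 3 (0.0692), values being edgeR adjusted p. Of all 18 alternatives, ID3 passed in 9.

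Together ID1, ID2 and ID3 had 485.4 to 580.1 FPKM in 50 nM libraries, 541.9 ± 49.9 on average, against 415.0 to 490.2 FPKM and 442.6 ± 41.4 in control libraries (SD, n = 3 each). The summed levels overlapped, since control replicate 1 exceeded 50 nM replicate 2. ID3 made up 76.2 ± 1.82% of this sum at 50 nM and 80.8 ± 0.63% in controls, with no overlap. ID1 made up 15.6 ± 1.495% and 12.3 ± 1.40%, and ID2 8.20 ± 0.42% and 6.91 ± 0.88%. Of these shares, that of ID1 ranged from 13.9% to 16.8% at 50 nM and from 10.8% to 13.5% in controls. In the 250 nM libraries, where no ID gene passed, the shares of ID3 and ID1 were also apart from those of controls. They were 78.0% to 78.6% for ID3, against 80.4% to 81.5% in controls, and 13.7% to 14.7% for ID1. The share of ID2 at 250 nM, 7.02% to 7.65%, overlapped that of controls, 5.97% to 7.71%. The shares were not tested.

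TGFBI had 5403, 5600 and 5549 CPM in 50 nM libraries and 4867, 4976 and 4710 CPM in control libraries. The groups were separated by a small margin relative to their level. Its log2 fold change of 0.19 ± 0.04 passed (edgeR adjusted p = 0.0209). It did not pass without control replicate 3 (edgeR adjusted p = 0.112), 50 nM replicate 1 (0.0502) or 50 nM replicate 2 (0.0615). Of all 18 alternatives, TGFBI passed in 11.

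SMAD7 had 26.4, 23.2 and 24.1 CPM in 50 nM libraries, all above the 20.0, 20.3 and 19.1 CPM of control libraries. Its log2 fold change was 0.31 ± 0.09 (95% interval 0.13 to 0.50), and it did not pass (edgeR adjusted p = 0.0654). DESeq2 called it as higher (adjusted p = 0.021), alone among the 18 alternatives. The 95% intervals are not adjusted for the number of genes.

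Among the ligands, BMP4, which signals through SMAD1 and SMAD5, had 62.1, 64.8 and 63.4 CPM in 50 nM libraries and 74.1, 70.8 and 74.6 CPM in control libraries. All 50 nM values lay below all control values. BMP4 had a log2 fold change of -0.21 ± 0.06 (95% interval -0.33 to -0.08, edgeR adjusted p = 0.0698), which did not pass. On log2(FPKM + 1) BMP4 passed as lower at 50 nM (limma, -0.25 ± 0.05, adjusted p = 0.0307). In that fit the median log2 fold change of all genes was -0.041, against -0.002 in edgeR. DESeq2 also called BMP4 as lower (adjusted p = 0.0163).

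TGFB2, a TGF-β isoform that needs the co-receptor TGFBR3 for efficient receptor binding, had 93.3, 92.8 and 86.1 CPM in 50 nM libraries. Its control values of 67.6, 87.6 and 80.1 CPM spread widely, and control replicate 2 lay above 50 nM replicate 3. For TGFB2 this gave a log2 fold change of 0.21 ± 0.08 (95% interval 0.04 to 0.38, edgeR adjusted p = 0.188).

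**Figure D2:**
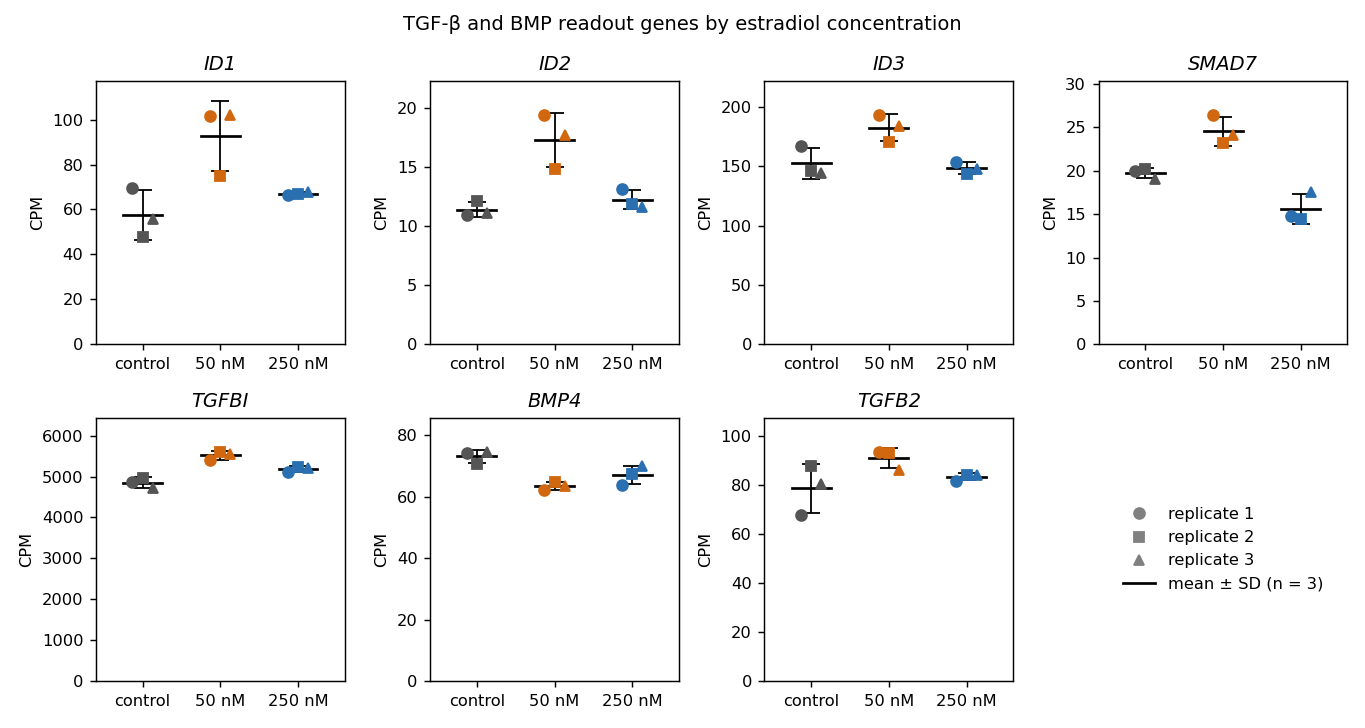
CPM of each of the 7 genes in the 9 libraries, by estradiol concentration, with symbols for the replicate number and bars for the mean ± SD (n = 3). ID1, ID2, ID3 and SMAD7 are highest at 50 nM, where replicate 2 is the lowest library for each of them, and BMP4 is highest in the controls.

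The comparison of 250 nM estradiol with control used the same control libraries. None of the 7 genes passed in edgeR's quasi-likelihood test, and 3 had an unadjusted p under 0.05, as did 8.67% of all genes: SMAD7, TGFBI and BMP4. Over all genes tested 0.308% passed, so few calls were made anywhere in this comparison. DESeq2 called SMAD7 as lower (adjusted p = 0.0466) and none of the others. The 250 nM and control libraries did not overlap for 3 of the 7, against 15.5% of all genes. The median log2 fold change of the 7 was 0.09.

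SMAD7 had 14.8, 14.5 and 17.6 CPM in 250 nM libraries and 20.0, 20.3 and 19.1 CPM in control libraries. Every 250 nM library was below every control, while every 50 nM library was above. This gave a log2 fold change of -0.34 ± 0.09 (95% interval -0.52 to -0.15, edgeR adjusted p = 0.163). Its lowest adjusted p over 18 alternatives was that of DESeq2, and its highest 0.55.

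ID1 had 66.5, 66.8 and 67.7 CPM in 250 nM libraries, inside the control range of 47.6 to 69.5 CPM. The log2 fold change was 0.22 ± 0.12 (95% interval -0.04 to 0.48, edgeR adjusted p = 0.686). ID2 had 13.1, 11.9 and 11.6 CPM in 250 nM libraries, which overlapped the controls (0.10 ± 0.10, 95% interval -0.12 to 0.32, edgeR adjusted p = 0.864). ID3 had 153.6, 143.6 and 147.6 CPM, also overlapping (-0.04 ± 0.07, 95% interval -0.18 to 0.10, edgeR adjusted p = 0.934). The 50 nM estimates of ID1, ID2 and ID3 lay outside these intervals, but they carry an error of their own and share the same controls. For ID1 the 95% interval at 50 nM, 0.42 to 0.95, overlapped that at 250 nM, whereas for ID2 and ID3 the intervals did not overlap. The direct comparison of the concentrations follows below.

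TGFBI had 5103, 5234 and 5206 CPM at 250 nM, all above the controls (0.09 ± 0.04, 95% interval 0.01 to 0.18, edgeR adjusted p = 0.52). BMP4 had 64.0, 67.4 and 69.9 CPM, all below the controls (-0.12 ± 0.06, 95% interval -0.25 to -0.002, edgeR adjusted p = 0.566). TGFB2 had 81.7, 84.0 and 84.0 CPM, within the control range (0.09 ± 0.08, 95% interval -0.08 to 0.25, edgeR adjusted p = 0.851). Neither ligand passed at either concentration in this test.

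The comparison of 250 nM with 50 nM estradiol tested whether the concentrations differ. SMAD7 was lower at 250 nM by 1.57-fold and was the only 1 of the 7 genes to pass. Over all genes 0.325% passed and 0.138% passed downward. Its 250 nM values of 14.8, 14.5 and 17.6 CPM lay well under its 50 nM values of 26.4, 23.2 and 24.1 CPM. The log2 fold change was -0.65 ± 0.09 (95% interval -0.84 to -0.46, edgeR adjusted p = 0.0018). By p-value SMAD7 ranked 14th among all genes. It passed without any 1 of the 6 libraries (edgeR adjusted p up to 0.0209), and lost the call in 1 of 18 alternatives, limma on log2(FPKM + 1) without a filter (adjusted p = 0.0667).

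For ID1, ID2 and ID3 every 250 nM library had fewer CPM than every 50 nM library, but none of the 3 genes passed. Their log2 fold changes were -0.47 ± 0.12 (edgeR adjusted p = 0.218), -0.50 ± 0.10 (0.0614) and -0.30 ± 0.07 (0.106), and their unadjusted 95% intervals lay below 0. The lowest 50 nM library of all 3 genes was replicate 2, which was lowest for SMAD7 too. Without that library ID1 passed (-0.60 ± 0.11, edgeR adjusted p = 0.0341), as did ID2 (-0.60 ± 0.10, adjusted p = 0.0174). This was the only 1 of the 6 fits leaving out a library in which either gene passed. Leaving out the lowest 50 nM library necessarily widens the difference from 250 nM. DESeq2 called ID2 and ID3 (adjusted p = 0.00271 and 0.00494), and edgeR without a filter on low counts called ID1, ID2 and ID3 (adjusted p = 0.0448, 0.0215 and 0.0442). On the first principal component of all genes (16.7% of the variance) 50 nM replicates 1, 2 and 3 lay at 19.1, 13.65 and 17.65. Control replicate 2 was furthest out on it, at -29.6. On the second (14% of the variance) 50 nM replicate 2 lay at -19.6 and 50 nM replicate 3 at 27.1. The other 7 libraries were between -11.2 and 12.5 on the second.

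TGFBI, TGFB2 and BMP4 differed less between the concentrations, at -0.09 ± 0.04, -0.12 ± 0.08 and 0.08 ± 0.06 on the log2 scale (edgeR adjusted p of 0.846 or more). Their 95% intervals were -0.18 to -0.004, -0.29 to 0.04 and -0.04 to 0.20. In this comparison 6 of the 7 genes did not overlap between the groups, BMP4 being the exception, against 11.5% of all genes. The median log2 fold change of the 7 was -0.30.

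**Figure D3:**
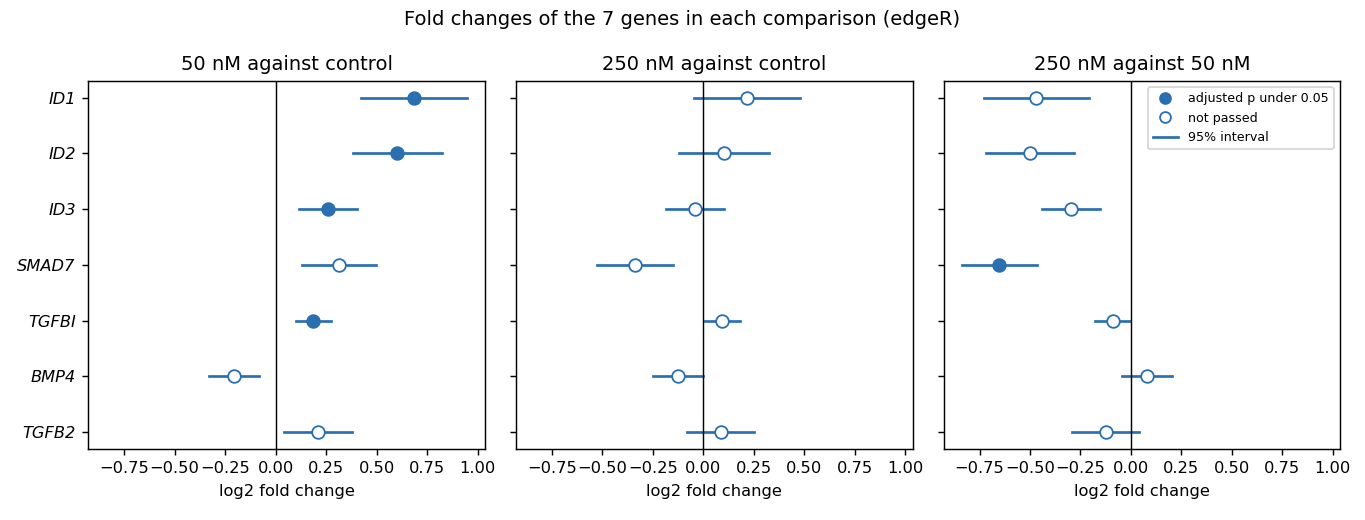
Log2 fold changes of the 7 genes with 95% intervals in the 3 comparisons, filled where the edgeR adjusted p was under 0.05. ID1, ID2, ID3 and TGFBI are filled at 50 nM against control, none at 250 nM against control, and SMAD7 alone at 250 nM against 50 nM.

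A test of any difference over the 3 groups passed for SMAD7 (edgeR adjusted p = 0.0021), ID2 (0.00748), ID1 (0.0143) and ID3 (0.0465). It did not pass for TGFBI (0.0635), BMP4 (0.183) or TGFB2 (0.416), and 1.86% of all genes passed. For 6 of the 7 genes the highest group mean was that at 50 nM, and for BMP4 it was the control. Over all genes tested 35.8% had their highest mean at 50 nM.

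Replicates of a group differed most for ID1 and TGFB2 among the controls. The coefficient of variation of ID1 was 19.2% in control, 16.7% in 50 nM and 0.94% in 250 nM libraries, and that of TGFB2 12.8%, 4.42% and 1.62%. Control replicate 1 had the highest control value of ID1 and ID3 and the lowest of TGFB2. TGFBI varied by 2.76%, 1.86% and 1.33% in the same order.

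Over the 9 libraries, the genes whose pattern was most like that of ID1, ID2 and SMAD7 were sought. The measure was the root mean square difference of log2 CPM, each gene being centred on its own mean. Candidates were 7588 genes with a symbol and a mean of at least 5 CPM, outside the genes chosen here. For SMAD7, NUAK2, which encodes a stress-responsive kinase related to AMPK, was nearest, at 0.09 on the log2 scale, where SMAD7 itself varied by 0.28 around its mean. NUAK2 averaged 93.2 CPM in control, 124.0 in 50 nM and 82.8 in 250 nM libraries. GADD45G, TXNIP, NAB2 and ZFP36L2 followed, at 0.15 to 0.16.

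For ID2, which varied by 0.27, the interferon-regulated transcription factor gene IRF1 was nearest (0.12), with 38.4, 61.5 and 40.4 CPM on average in control, 50 nM and 250 nM libraries. TIPARP, IFRD1, DDIT4 and ATAD5 came next, at 0.12 to 0.13. For ID1, which varied by 0.33, the nearest gene was FAM43A (0.15), with 34.2, 54.2 and 44.4 CPM, followed by NEPRO, KANSL2, PSD and SLC35B3 at 0.17. All patterns share the same 9 libraries, and the differences are descriptions without a test.

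**Figure D4:**
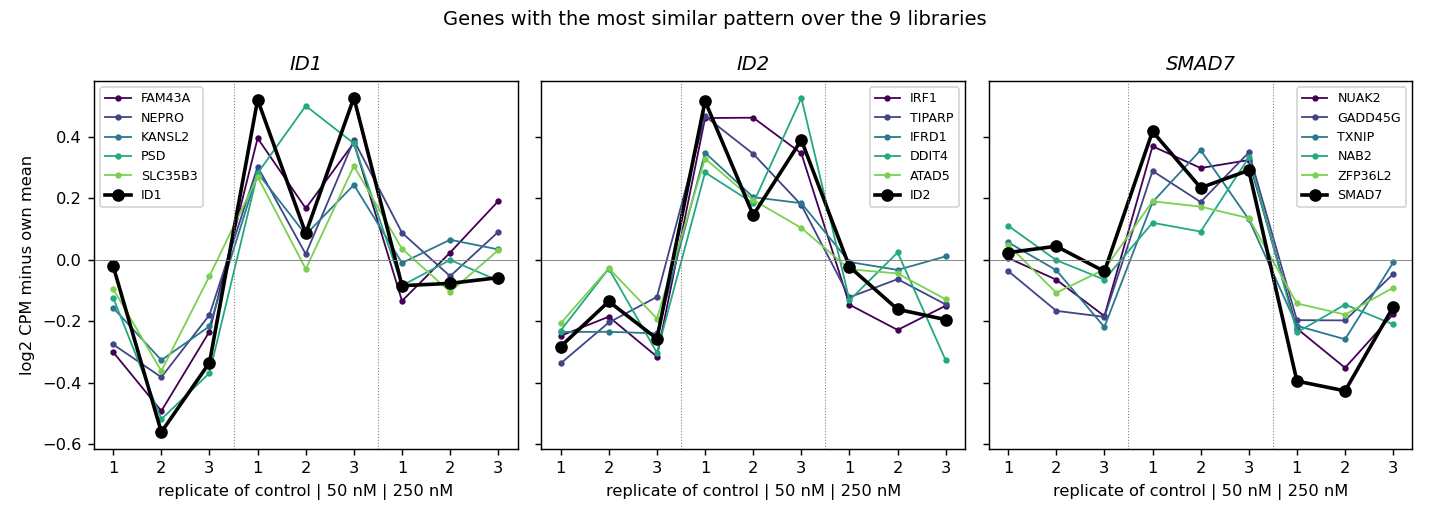
Log2 CPM minus each gene's own mean in the 9 libraries (replicates 1 to 3 of control, 50 nM and 250 nM, separated by dotted lines), for ID1, ID2 and SMAD7 in black and the 5 nearest genes of each in colour. NUAK2 follows SMAD7 with a root mean square difference of 0.09.

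The wider pathway was described with 8 lists taken from textbook knowledge, holding 152 other genes. Of these, 124 were found by symbol and 108 were tested. At 50 nM 10 of the 108 rose and 4 fell against control (edgeR adjusted p under 0.05), with a median log2 fold change of 0.05, where 3.25% of all genes passed and 1.55% passed upward. At 250 nM 4 rose and 0 fell, against 0.308% of all genes, and between 250 nM and 50 nM 0 were higher and 2 lower, against 0.325%. These shares apply to each list too. Of the 14 at 50 nM, 9 passed without any 1 of the 6 libraries, among them INHBB, THBS1, KLF10, CDKN1A, BHLHE40, HES1, MSX2 and TBX3. The lists too were made with earlier results known.

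Of 13 other ligand genes tested, 1 rose at 50 nM and 0 fell. INHBB, which encodes the activin βB subunit, had 122.1, 126.4 and 119.2 CPM in 50 nM libraries, above the 101.6, 100.2 and 104.3 CPM of controls (0.26 ± 0.05, edgeR adjusted p = 0.0101). At 250 nM it did not pass (0.21 ± 0.05, edgeR adjusted p = 0.135). INHBA, the activin βA subunit gene, was the most abundant other ligand gene, with 215.0 ± 13.3, 189.5 ± 12.6 and 208.4 ± 14.3 FPKM in control, 50 nM and 250 nM libraries. Chosen after their values were seen, BMP6 had 47.4 ± 0.84 FPKM in controls, more than BMP4, while TGFB3 had 2.33 ± 0.42 and BMP2 0.93 ± 0.29 FPKM.

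Of 13 receptor and co-receptor genes, TGFBR2, the type II receptor of TGF-β, rose at 50 nM and 0 fell. It had 1143, 1298 and 1087 CPM in 50 nM libraries, against 986.8, 1010 and 975.8 CPM in control libraries (0.25 ± 0.06, edgeR adjusted p = 0.0341), and was the most abundant receptor gene (191.5 ± 15.5 FPKM at 50 nM and 167.4 ± 1.71 FPKM in controls). Its call held without 50 nM replicate 3 only, of the 6 libraries left out in turn. None of the 6 receptor and common SMAD genes passed at either concentration, with 2 at an unadjusted p under 0.05 at 50 nM and 1 at 250 nM in edgeR, where 15.6% and 8.67% of all genes reached it. SMAD2 was the most abundant of them, with 41.3 ± 2.06, 38.1 ± 3.77 and 39.7 ± 2.33 FPKM in control, 50 nM and 250 nM libraries.

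Of 20 genes for extracellular antagonists and latent TGF-β handling, 1 rose and 1 fell at 50 nM. THBS1, whose product thrombospondin 1 can activate latent TGF-β, had 2298, 2228 and 1917 CPM in 50 nM libraries, above the 1438, 1535 and 1572 CPM of controls (0.50 ± 0.06, edgeR adjusted p = 0.000325). It rose at 250 nM too (0.32 ± 0.06, edgeR adjusted p = 0.0393), a call lost without any 1 of the 6 libraries (adjusted p of 0.0845 or more). SOSTDC1, a secreted antagonist of BMPs, had 109.9, 107.7 and 122.9 CPM in 50 nM libraries and 144.9, 147.7 and 138.7 CPM in control libraries (-0.34 ± 0.07, edgeR adjusted p = 0.00897). Without 50 nM replicate 1 it missed the threshold (adjusted p = 0.0551). BGN, which encodes the proteoglycan biglycan, was the most abundant of the list, with 1473 ± 69.2, 1496 ± 44.1 and 1549 ± 74.5 FPKM in control, 50 nM and 250 nM libraries.

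Of 19 genes for intracellular inhibitors and modulators, 0 rose at 50 nM and 1 fell. This was RNF111, which encodes Arkadia, a ubiquitin ligase that targets SMAD7 and SKIL proteins. It had 35.1, 34.4 and 32.0 CPM in 50 nM libraries, against 40.3, 50.5 and 41.0 CPM in control libraries (-0.38 ± 0.09, edgeR adjusted p = 0.0285). It passed without control replicate 1 and in none of the other 5 fits that leave out a library (adjusted p up to 0.101). FKBP1A, whose product FKBP12 binds type I receptors, was the most abundant of this list, at 336.8 ± 21.5, 333.5 ± 31.0 and 331.1 ± 6.37 FPKM in control, 50 nM and 250 nM libraries.

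Of 22 other TGF-β target genes, 5 rose and 1 fell at 50 nM, with a list median of 0.08. KLF10, first described as a TGF-β-inducible early gene, had 184.4, 173.7 and 163.4 CPM in 50 nM libraries and 96.6, 106.1 and 98.4 CPM in controls (0.79 ± 0.07, edgeR adjusted p = 6.56e-06). BHLHE40, a transcriptional repressor, rose by 0.86 ± 0.07 (edgeR adjusted p = 5.80e-06). COL1A1 and COL1A2 rose by 0.18 ± 0.04 each (edgeR adjusted p = 0.026 and 0.0159). COL1A1 passed without 50 nM replicate 3 alone of the 6 libraries, and COL1A2 was lost without 50 nM replicate 2 (adjusted p = 0.0549). Of all 18 alternatives, COL1A1 passed in 9 and COL1A2 in 13. CDKN1A, a cell cycle inhibitor gene, fell by 0.35 ± 0.05 on the log2 scale (edgeR adjusted p = 0.0011). FN1, the most abundant of the list, did not pass (0.20 ± 0.06, edgeR adjusted p = 0.079), but did without control replicate 2 (0.29, edgeR adjusted p = 0.00204) and without 50 nM replicate 3 (0.23, edgeR adjusted p = 0.0481).

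At 250 nM 3 of these 22 targets rose and 0 fell: KLF10 (0.40 ± 0.07, edgeR adjusted p = 0.0187), BHLHE40 (0.42 ± 0.07, 0.0204) and COL1A1 (0.22 ± 0.04, 0.0401). COL1A1 lost this call without any 1 library. KLF10 lost it without control replicate 1 or 3 or 250 nM replicate 2 or 3 (edgeR adjusted p up to 0.143), and BHLHE40 without control replicate 1 or 3 or 250 nM replicate 1 or 3 (up to 0.148). KLF10 and BHLHE40 were lower at 250 nM than at 50 nM (-0.39 ± 0.07, edgeR adjusted p = 0.0134, and -0.44 ± 0.07, adjusted p = 0.00937). This call was lost for both genes without 50 nM replicate 1, 250 nM replicate 1 or 250 nM replicate 2, and for KLF10 also without 50 nM replicate 2 (edgeR adjusted p up to 0.139 for KLF10 and 0.0777 for BHLHE40).

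Of 10 BMP target genes outside the ID family, 2 rose and 1 fell at 50 nM. The developmental transcription factor gene TBX3 had 38.9, 33.8 and 33.1 CPM in 50 nM libraries, above the 24.9, 25.7 and 23.7 CPM of controls (0.51 ± 0.08, edgeR adjusted p = 0.0012). HES1, a Notch effector gene that BMPs can also induce, rose by 0.95 ± 0.16 (edgeR adjusted p = 0.00394) and was low in all groups, with 9.43, 8.90 and 7.88 CPM in 50 nM libraries and 5.45, 4.27 and 3.88 CPM in control libraries. MSX2, a homeobox gene and widely used BMP readout, went the other way. It had 18.2, 20.6 and 21.7 CPM in 50 nM libraries, all below the 29.7, 29.3 and 29.2 CPM of controls (-0.54 ± 0.07, edgeR adjusted p = 0.000633), a fold opposite in direction to that of ID1, ID2 and ID3. MSX2 passed in all 18 alternatives (adjusted p up to 0.00845). At 250 nM none of the 10 passed in edgeR, with 5 at an unadjusted p under 0.05 (8.67% of all genes). MSX2 then had 24.8, 24.1 and 24.1 CPM, again below all controls (-0.27 ± 0.07, edgeR adjusted p = 0.184).

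Among 7 tested genes for proteins that pair with or compete with ID proteins, HES1 alone passed at 50 nM and none at 250 nM, where 2 had an unadjusted p under 0.05 in edgeR (8.67% of all genes). TCF4, the more abundant of the E protein genes found by symbol, TCF4 and TCF12, had 35.2 ± 3.09, 33.7 ± 3.73 and 33.9 ± 1.61 FPKM in control, 50 nM and 250 nM libraries. TCF12 averaged 23.25, 21.96 and 23.11 FPKM in the same order. The ID sum, 442.6 FPKM in controls, 541.9 at 50 nM and 431.8 at 250 nM, can be set beside these levels. All of them concern RNA per transcript length and not protein.

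**Figure D5:**
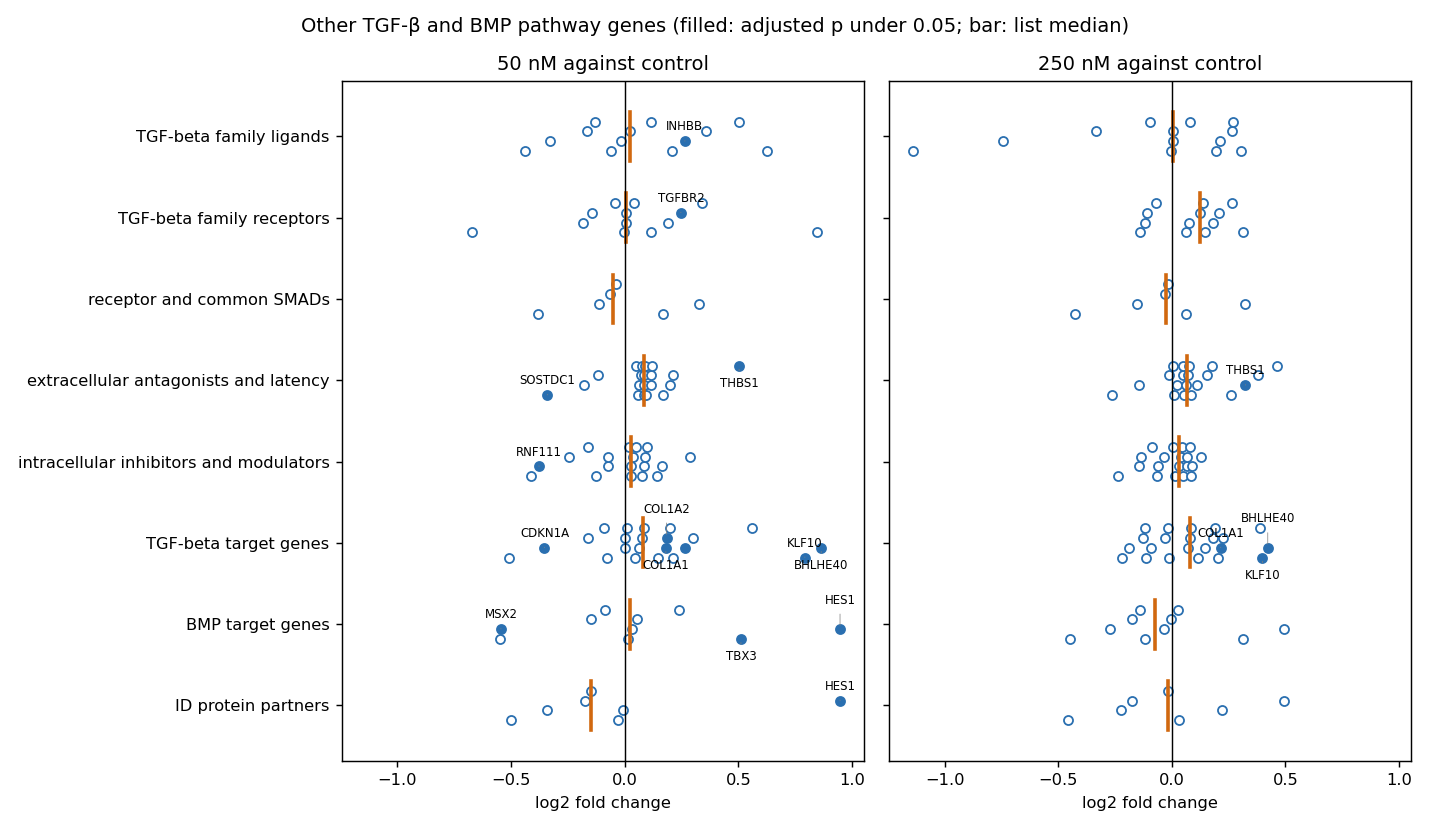
Log2 fold changes of the 108 other pathway genes by list, at 50 nM and at 250 nM against control, with filled points where the edgeR adjusted p was under 0.05, most of them named, and a bar at the list median. Filled points stand for 14 genes at 50 nM, HES1 standing in 2 lists, and for 4 at 250 nM.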

How the data were processed

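The submitters' processing notes name Trim Galore, TopHat2 2.1.1, Cufflinks and Cuffdiff. The role of each tool, the genome build, the gene annotation and strand handling are not stated in the labels, so overlapping or antisense genes could share counts. Each library came with estimated counts per gene, and the authors deposited FPKM values beside them. All counts were whole, so none was rounded. Since 4, 8 and 12 are frequent among low counts, fragment numbers are approximate. Groups were taken from titles, and table columns were matched to titles.

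Genes were filtered with filterByExpr (minimum count 10). Testing used edgeR 4.0.16 (R 4.3.3) with its quasi-likelihood F test, TMM scaling and all 9 libraries in a single fit without covariates. P-values were adjusted by Benjamini-Hochberg over 12324 genes, with a threshold of 0.05. Fold changes are the group named first over the one it is set against. The method was tested on counts simulated from its own fitted model, which cannot show how well that model suits these data.

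The genes and lists were chosen with earlier results of these data known. Named genes are all members found, pathway genes that passed against control, the most abundant gene of each list and the 5 nearest patterns (mean of at least 5 CPM). Some genes that this rule names are not reported here. Alternatives were DESeq2 1.42.0, limma-voom (limma 3.58.1), RLE and upper-quartile scaling, no filter, a filter of 5 CPM in 3 libraries, only the 2 groups compared, a replicate block, counts divided by 4, limma on log2(FPKM + 1) or log2(FPKM + 0.1), and leaving out each library. Their use on the other pathway genes was chosen after seeing the data. Libraries of a group differed by more than sampling noise. Precision is limited by 3 libraries per group and by the fragments behind each gene.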

Additional observations from a re-analysis of the deposited data

How the results depend on the processing

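Over all genes at 50 nM against control, 401 passed in edgeR, 702 with DESeq2, 244 with only the 2 groups in the fit and 234 on log2(FPKM + 1) without a filter. The split was 191 higher and 210 lower in edgeR. It was 85 and 223 on log2(FPKM + 1), 88 and 236 on log2(FPKM + 0.1), and 77 and 157 on log2(FPKM + 1) without a filter. The median log2 fold change of all genes was -0.002 in edgeR and -0.041, -0.052 and -0.024 in these 3 FPKM fits. In the comparison of 250 nM with control 38 genes passed, 140 with DESeq2 and 4 in each of the 3 FPKM fits. At 250 nM against 50 nM 40 passed, 99 with DESeq2, 23 on log2(FPKM + 1), 26 on log2(FPKM + 0.1) and 11 on log2(FPKM + 1) without a filter.

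Of the 7 genes, 4 passed at 50 nM against control, 6 with DESeq2 (5 higher, 1 lower), 2 in each FPKM fit (1 higher, 1 lower) and 2 with only the 2 groups in the fit. None (0) passed at 250 nM against control, and 1 with DESeq2. At 250 nM against 50 nM 1 passed, 3 with DESeq2, 4 without a filter, 2 with counts divided by 4 and 0 on log2(FPKM + 1) without a filter. The causes were not tested.

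Leaving out 1 library gave 187 (without control replicate 3) to 564 (without 50 nM replicate 3) genes at 50 nM against control, and 2 to 4 of the 7. At 250 nM against control it gave 5 (without 250 nM replicate 3) to 25 genes and 0 of the 7. At 250 nM against 50 nM it gave 21 to 50 genes and 1 to 3 of the 7. At 250 nM against control, the log2 fold change of ID3 ranged from -0.079 to 0.032 and that of TGFB2 from -0.011 to 0.17. Both changed sign without control replicate 1, and no other named fold change of the 7 genes did in any alternative.

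A replicate block gave 492, 43 and 42 genes past the threshold in the 3 comparisons, and 4, 0 and 2 of the 7, ID3 being added at 250 nM against 50 nM (edgeR adjusted p = 0.0204). Libraries with the same number did not deviate together (r from -0.03 to 0.04 over 9 pairs, 0 above 0.1, across genes, which are not independent replicates), and 1 of 9 libraries correlated best with its own number. The labels tie no number to a shared culture. Of the 7 genes, ID2 and SMAD7 rested on the fewest fragments, while ID1 had the largest SE of the log2 fold change in each comparison.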
